A study of Mus musculus with 8 samples.

Results

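The genes described here encode the proteins of the cytosolic ribosome, measured in AML410, an acute myeloid leukaemia of the mouse. They were chosen by symbol: Rpl or Rps followed by a digit, plus Rplp0, Rplp1, Rplp2 and Rpsa, restricted to protein-coding genes and without the Rps6k kinases or names ending in -ps. The annotation holds 89 such genes, and 86 of them are among the 12830 genes of the count tables; Rpl39, Rpl39l and Rpl10l were not analysed here. By name, 76 of the 86 are core subunits (42 of the large subunit, 31 of the small subunit and 3 of the stalk), 5 are paralogues with a parent among the core genes and 4 are retrocopies. The remaining gene, Rps19bp1, encodes a protein that binds Rps19 and is not a ribosomal protein itself. The rule left out 32 further genes of the tables, 9 kinases and 23 pseudogene names.

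The leukaemia lacks p53 and has a monosomal karyotype, and it carries a hairpin RNA against PU.1, the myeloid and B cell transcription factor encoded by Spi1, linked to green fluorescent protein (GFP). Doxycycline (Dox) shuts the hairpin off, so that the cells' own PU.1 returns. GFP-positive marrow cells of leukaemic C57BL/6 recipients were sorted from untreated mice (GFPhigh) and from mice on Dox for 2 days (GFPhigh-mid), 4 days (GFPmid) or 6 days (GFPlow), with 2 libraries in each group. The lack of p53, the hairpin construct and the GFP reporter were common to all 4 groups, untreated cells included, and no group of Dox-treated mice without the hairpin was analysed here. Time on Dox, the drug itself and the GFP gate changed together and cannot be told apart. The titles call the 2 libraries of a group technical replicates and the series design speaks of duplicate mice, so each p-value reflects no more than the variation between these libraries, and that variation may be technical. All cells come from the same leukaemia.

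A ribosome joins a large and a small subunit, each built from ribosomal RNA and many different proteins, most of which are present as 1 copy per ribosome. Their mRNAs typically begin with a run of pyrimidines at the cap, the 5′ terminal oligopyrimidine (TOP) tract, through which the mTOR pathway and the RNA-binding protein Larp1 adjust their translation and stability together. Myc raises their transcription in many growing cells, and in several blood lineages ribosome production falls as precursors mature. Translation itself was not measured in these libraries, which hold mRNA levels only.

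The libraries held 9262047 to 11213292 counts. Spi1 stood at 8.34 and 12.9 CPM (counts scaled to a common library size, scaled by the trimmed mean of M-values, TMM) in the untreated libraries, 14.8 and 15.6 at day 2, 94.0 and 103 at day 4 and 217 and 229 at day 6, so the labelled order of the groups and the level of the restored gene went the same way. Myeloid markers were abundant throughout: the 10 genes of that list summed to 17920 and 15420 CPM in untreated cells and to 42060 and 48610 at day 6. Singly, 7 of the 10 were called higher at day 6 and 2 lower (edgeR adjusted p under 0.05), against 32% and 31.6% of all genes. Erythroid markers (6 of 10 in the tables, among them Hba-a2 and Slc4a1) summed to 14.5 and 6.62 CPM untreated, between 2.42 and 8.42 in the day 2 and day 4 libraries, and 40.8 and 64.5 at day 6. B cell markers (10 genes) ranged from 12.7 CPM in a day 4 library to 140 in day 2 replicate 1, while the other day 2 library held 17.4. Of the 10 T and NK cell markers only Nkg7 was tested, and the Cd3 genes were not among the genes of the tables. Erythroid and myeloid markers differed between untreated cells and day 6, as the ribosomal protein genes did, and their part in the results below was not tested. In bulk libraries a change in the make-up of the sorted cells and a change of RNA per cell cannot be told apart.

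The members' levels spanned a wide range. Per kilobase of gene length the mean over the 8 libraries ran from 1.21 CPM (Rpl3l) to 1708 CPM (Rpl8), with a median of 80.3. Rpl8, which lies near the peptidyl transferase centre of the large subunit, held 10.8% of all counts of the members, and the leading 7 genes, among them Rpl8, Rps3, Rplp0, Rpl4, Rpl32 and Rplp1, held 43.2%. At the other end 29 of the 86 members had a mean under 200 counts per library and 20 had under 100, among them core subunits that every ribosome contains, such as Rpl13 (16.8 counts on average), Rpl38 (11.5), Rps23 (23.5) and Rpl11 (35.9). Ribosomal protein mRNAs have many near-identical copies in the genome, and how reads with several possible positions were counted is not given in the sources used here. Of the 50-base stretches in a member's transcripts, a median of 64.6% were found in no other gene (85 members matched to transcripts of GENCODE release M21). The share of unique stretches and the level per kilobase were weakly related across these 85 genes (Spearman's rho 0.19, Pearson's r 0.17 with the log2 level; genes of the same libraries, not independent replicates), so low counts were found at high and at low uniqueness.

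**Figure D1:**
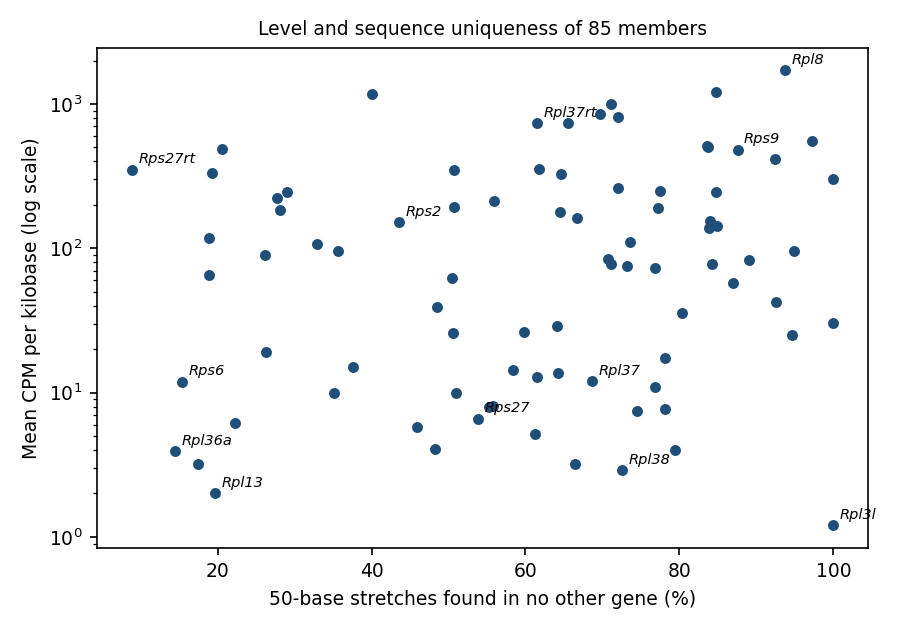
Mean level per kilobase over the 8 libraries (CPM per kb, log scale) of 85 ribosomal protein genes against the percentage of their 50-base transcript stretches found in no other gene; each point is a gene. Points are spread over the whole plane: Rps27rt and Rpl37rt sit far above their parents Rps27 and Rpl37, and Rpl3l is lowest although all of its stretches are unique.

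Some members cannot be separated from their copies. Rps27rt (gene 100043813, chr9:114982366-114982739, GRCm38.p6) is a copy of Rps27 (gene 57294, chr3:90212667-90213648), a zinc-finger protein of the small subunit. Their open reading frames are the same in 255 of 255 bases, so the sequence below, read from the GENCODE M21 transcripts, is that of both.

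Rps27 and Rps27rt: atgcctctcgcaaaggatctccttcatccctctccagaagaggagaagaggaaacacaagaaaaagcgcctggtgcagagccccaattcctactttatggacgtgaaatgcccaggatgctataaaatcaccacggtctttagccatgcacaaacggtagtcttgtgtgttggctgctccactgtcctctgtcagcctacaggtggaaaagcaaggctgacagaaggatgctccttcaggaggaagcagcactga

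Within this frame no read can be assigned to one gene rather than the other. The tables nevertheless gave Rps27 33 to 55 counts per library and Rps27rt 969 to 1820. Rpl37 (gene 67281) and its retrocopy Rpl37rt (gene 100502825), both of the large subunit, differ in 1 of 294 bases of their reading frames, the substitution G249A counted from the first base of the start codon. It is shown in capitals in the 60 bases around it.

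Rpl37: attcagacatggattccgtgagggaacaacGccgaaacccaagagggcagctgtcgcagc
Rpl37rt: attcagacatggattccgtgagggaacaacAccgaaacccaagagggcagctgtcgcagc

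Rpl37 had 67 to 149 counts per library and Rpl37rt had 3538 to 6221. For both pairs the split between parent and copy is uncertain. Over whole transcripts 8.92% of the stretches of Rps27rt and 53.8% of those of Rps27 were found in no other gene, and 61.5% of those of Rpl37rt and 68.7% of those of Rpl37. Beyond such copies, 20 members overlap another gene of the RefSeq annotation, Rps2 with the snoRNA host gene Snhg9 and Rpl32 with Cand2 among them, and strandedness is not given, so antisense partners could not be separated.

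The first question was how much of each library the ribosomal protein genes held as PU.1 returned. They took 1.74% and 1.61% of the counts in the untreated libraries, 1.42% and 1.63% at day 2, 1.35% and 1.30% at day 4 and 1.03% and 0.983% at day 6. The day 4 and day 6 libraries lay below both untreated libraries, and the day 6 mean was 0.602 of the untreated mean. A single gene took over 5% of day 2 replicate 1. Without it the day 2 libraries stood at 1.63% and 1.63%, and the other shares barely moved. An exact 2-sided permutation test of 2 against 2 libraries cannot go below p = 0.333, which was its value at day 4 and at day 6. Both subunits were lower at day 6: the mean share of the genes named for the large subunit went from 0.787% in untreated cells to 0.462%, and that of the genes named for the small subunit from 0.683% to 0.425%. Leaving out Rpl8, the most abundant member, the ratio of day 6 to untreated was 0.605.

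**Figure D2:**
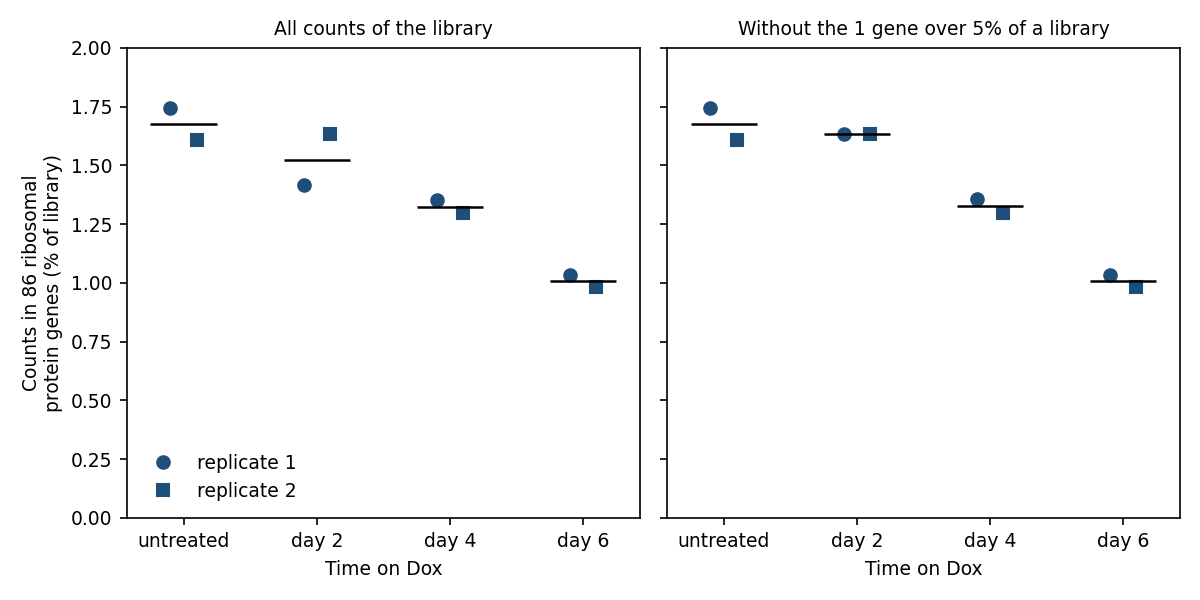
Percentage of each library's counts in the 86 ribosomal protein genes, for the 2 libraries of each group (circle, replicate 1; square, replicate 2; line, mean), over all counts (left) and without the 1 gene that held over 5% of a library (right). The day 6 libraries are lowest at 1.03% and 0.983%, and day 2 replicate 1 is low only when that gene is counted.

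Gene by gene, the change came late. All 86 members passed the filter on low counts and were tested with edgeR's quasi-likelihood test, fitted over 12330 genes. At day 2, 3 members were called higher than in untreated cells and none lower at an adjusted p under 0.05, against 4.18% of all genes called higher and 1.95% lower (unadjusted p under 0.05 gave 8 higher and 1 lower). At day 4, 10 were called lower and 2 higher, where 22% of all genes were called lower and 26.1% higher. The 10 lower calls became 5 without day 4 replicate 1 and 1 without day 4 replicate 2. The 2 higher calls became 5 without untreated replicate 1 and 1 without any other single library. At day 6, 50 of the 86 were called lower and 2 higher, where 31.6% of all genes were called lower and 32% higher. The 50 lower calls became 30 without day 6 replicate 2, and the 2 higher calls became 4 without untreated replicate 1 and 1 without untreated replicate 2 or either day 6 library. The members' median log2 fold change was 0.03 at day 2, −0.11 at day 4 and −0.33 at day 6, beside medians of 0.00, −0.02 and −0.04 over all genes tested. These 3 comparisons share the untreated libraries.

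The later intervals, which do not use the untreated libraries, were tested as well. Between day 2 and day 4, 9 members were called lower and none higher (15.9% and 21.7% of all genes; 0 higher at an unadjusted p under 0.05). Between day 4 and day 6, 20 were called lower and 1 higher, against 14% and 15.9% of all genes. The 9 lower calls between days 2 and 4 became 15 or 16 without an untreated library and 2 to 5 without a library of days 2 or 4. The 20 between days 4 and 6 became 34 without either untreated library and 6 to 11 without a library of days 4 or 6. Between day 2 and day 6, 51 were called lower and 1 higher, against 29.4% and 30.5%, and the higher call was lost without any 1 of the 6 Dox libraries. At day 6 both libraries of 64 members lay below both untreated ones, as for 42.4% of all genes. The mean of 73 members (84.9%) was lowest at day 6 among the 4 groups, as for 39.7% of all genes, and the mean of 68 members (79.1%) went down at both later steps, as for 35.6% of all genes. The F test over the 4 groups called 48 of the members, which is fewer than the 65.1% of all genes it called. The members' values at day 6 lay closer together than those of all genes and mostly on the same side of 0: the members' lower and upper quartiles were −0.48 and −0.20 (log2 fold change), and those of all genes −0.52 and 0.51.

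**Figure D3:**
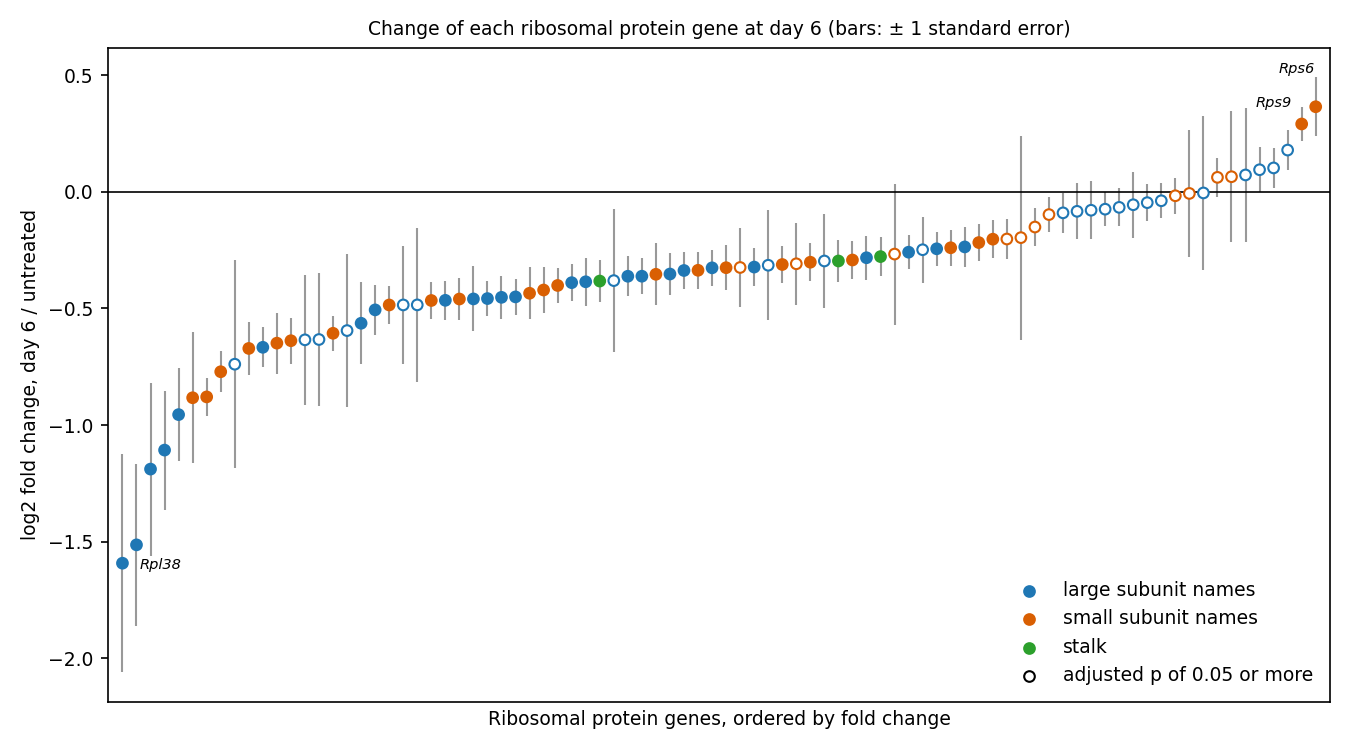
Log2 fold change at day 6 against untreated (y axis) of each of the 86 members, ordered by that value, with bars of ± 1 standard error; colour gives the subunit in the name, and open points did not pass the test. The values run from −1.59 (Rpl38) to 0.37 (Rps6), 78 of 86 lie below 0, and the bars are longest for genes with few counts.

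How large the fall appears depends on the scale. TMM factors were 1.15 and 1.18 in the untreated libraries and 0.873 and 0.849 at day 6, and S100a9, a neutrophil gene, alone went from 471 and 289 CPM to 10386 and 14295. Scaled to library totals alone, 77 members were called lower at day 6 and none higher (edgeR), where 53.9% of all genes were called lower and 16.9% higher, and the members' median was −0.76, but the median of all genes was −0.47 on that scale. The difference between the members' median and that of all genes was −0.287 under TMM and −0.286 under library totals. Under library totals 40 members were called lower at day 4 and none higher, where 36.7% of all genes were called lower and 14.7% higher.

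The stalk proteins bind elongation factors at the side of the large subunit. Rplp0, its base, stood at 1128 and 979 CPM untreated, 1112 and 1039 at day 2, 1027 and 992 at day 4, and 847 and 869 at day 6. The day 6 libraries lay below the other 6, with a log2 fold change of −0.30 from untreated (SE 0.09, edgeR adjusted p = 0.0135). The acidic stalk proteins Rplp1 (−0.38, edgeR adjusted p = 0.00286) and Rplp2 (−0.28, edgeR adjusted p = 0.0131) were also called lower at day 6. That makes 3 of 3, where 31.6% of all genes were called lower. The calls of Rplp0 and Rplp2 were lost without untreated replicate 1 or either day 6 library (log2 fold changes from −0.16 to −0.31).

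Of the 42 core genes of the large subunit 22 were called lower at day 6 and none higher, with a median of −0.37. Over all genes, 31.6% were called lower and 32% higher, with a median of −0.04. Rpl8 (gene 26961, chr15:76904071-76906318) stood at 1678 and 1457 CPM untreated, 1600 and 1642 at day 2, 1512 and 1432 at day 4, and 1238 and 1218 at day 6. It fell by 0.35 on the log2 scale (SE 0.09, edgeR adjusted p = 0.00559; no call without day 6 replicate 2, −0.34). Rpl32, the next in level per kilobase, went from 721 and 640 CPM to 512 and 474 (log2 fold change −0.47, edgeR adjusted p = 0.000526). Rpl41, whose product is among the smallest of the ribosome, changed more: 538 and 472 CPM untreated, 549 and 501 at day 2, 465 and 438 at day 4, and 325 and 311 at day 6 (−0.67, SE 0.09, edgeR adjusted p = 4.07e-05). Both day 6 libraries of Rpl41 were below the 6 others. Rpl30, a protein at the interface of the subunits, gave no call, with 154 and 135 CPM untreated and 164.1 and 163.5 at day 6 (a log2 difference of 0.18, edgeR adjusted p = 0.0863).

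The 6 members with the largest called falls at day 6 were Rpl38 (−1.59), Rpl36a (−1.51), Rpl13 (−1.19), Rpl12 (−1.11), Rpl10a (−0.96) and Rps12 (−0.88), all core genes. Their mean counts were 11.5 to 133 per library. Rpl38, needed for the translation of some Hox mRNAs, stood at 1.70 and 1.68 CPM untreated, 1.04 and 1.08 at day 2, 1.09 and 0.878 at day 4, and 0.788 and 0.324 at day 6 (SE 0.47, edgeR adjusted p = 0.0112). The call was lost without day 6 replicate 2 (−1.09, edgeR adjusted p = 0.119) and with DESeq2 (adjusted p = 0.106). Rpl13 lost its call without untreated replicate 2 (−0.99), without either day 6 library and with DESeq2, and Rps12 lost it without untreated replicate 2 (−0.54), without day 6 replicate 1 (−0.63) and with DESeq2. Rpl12, of the stalk's base, stood at 7.07 and 11.2 CPM untreated, 6.34 and 7.45 at day 2, 5.36 and 4.68 at day 4, and 3.94 and 4.54 at day 6, so its day 6 libraries lay below both untreated ones, which themselves differed. Rpl36a (14.5% unique stretches), Rpl12 (51.0%) and Rpl10a (37.6%) stayed called under every alternative tried for day 6. Unique stretches made up 19.7% in Rpl13, 35.1% in Rps12 and 72.6% in Rpl38.

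A limit of 200 counts was chosen after the values were seen. Among the 57 members with a mean of at least 200 counts, 41 (71.9%) were called lower at day 6 and 1 higher, with a median of −0.32. Among the 29 with fewer counts 9 (31.0%) were called lower and 1 higher, although their median was −0.38. Of all genes, 31.6% were called lower and 32% higher, so the lower calls of the 29 were near the share of all genes. Of the 61 members with at least 50% unique stretches 36 were called lower (median −0.31), and of the 24 with fewer 13 were (median −0.44). Members are short, with a median length of 694 bases against 2761 for all genes. Of the 1113 other genes of up to 1000 bases, 332 were called lower and 273 higher at day 6, with a median of −0.11.

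The core genes of the small subunit gave 18 of 31 called lower at day 6 and 2 higher (median −0.30), against 31.6% and 32% of all genes. Rps2 (gene 16898, chr17:24718121-24721927), a protein of the mRNA entry channel, showed the largest fall among members with at least 200 counts. Only 43.6% of its stretches are unique. Rps2 stood at 186 and 164.8 CPM untreated, 193 and 191 at day 2, 154 and 141 at day 4, and 95.1 and 95.6 at day 6. Day 2 was not below untreated, both day 4 libraries were, and both day 6 libraries were lower again (log2 fold change −0.25 at day 4 and −0.88, SE 0.08, at day 6; edgeR adjusted p = 0.022 and 2.54e-06). Rps28 (−0.67) was also called lower. The day 4 call of Rps2 was lost without untreated replicate 1 (−0.16) or day 4 replicate 2 (−0.20), while its day 6 call, like those of Rps28 and Rpl41, held under every alternative tried. Rps2, Rps28 and Rpl41 were picked after their values were seen.

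Rps9 and Rps6 went the other way. Rps9 (gene 76846, chr7:3703954-3706897), which with Rps2 and Rps3 lines the mRNA entry channel, stood at 322 and 290 CPM untreated, 336 and 322 at day 2, 351 and 349 at day 4, and 378 and 371 at day 6. Both day 6 libraries were above the 6 others (log2 fold change 0.29, SE 0.07, edgeR adjusted p = 0.00476). Rps6, the subunit protein phosphorylated by the Rps6k kinases, stood at 13.8 and 12.2 CPM untreated, 19.1 and 17.5 at day 2, 18.97 and 17.9 at day 4, and 17.1 and 16.4 at day 6. All Dox libraries were above the untreated ones (0.49, 0.50 and 0.37 on the log2 scale at days 2, 4 and 6; edgeR adjusted p = 0.0416, 0.00541 and 0.0244), but only 15.4% of its stretches are unique and DESeq2 made none of these calls. Its day 6 call was also lost without untreated replicate 2 (0.28) or either day 6 library. Scaled to library totals the values at day 6 were −0.14 for Rps9 and −0.07 for Rps6, below 0 and not called, so both directions hold only relative to most other genes.

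Ratios of 2 genes within a library do not depend on its scaling. The counts of Rps2 were 0.578 and 0.569 of those of Rps9 in untreated cells, 0.575 and 0.594 at day 2, 0.437 and 0.405 at day 4, and 0.252 and 0.258 at day 6. The untreated and day 2 libraries overlapped, and the day 4 and day 6 libraries each lay apart. The counts given to the 2 genes thus changed unequally whatever the scale, with 43.6% unique stretches in Rps2 and 87.6% in Rps9. Rpl41 had 3.49 and 3.49 times the counts of Rpl30 in untreated cells and 1.98 and 1.90 times at day 6. These pairs were chosen for their contrast and are given as values with no test. In all, 34 members had no call at day 6, 15 of them with at least 200 counts on average.

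**Figure D4:**
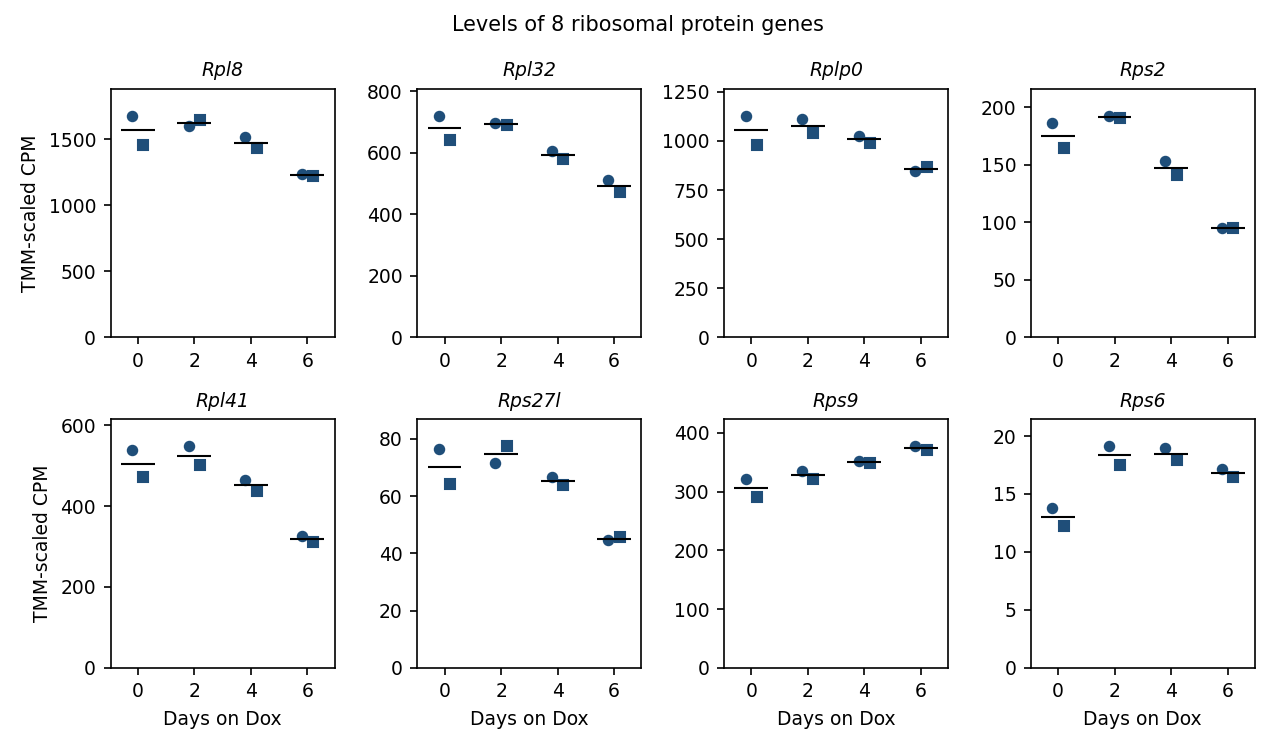
TMM-scaled CPM of 8 members in each library by days on Dox (0 is untreated; circle, replicate 1; square, replicate 2; line, mean), each panel on its own scale from 0. Rps2, Rpl41 and Rps27l are lowest at day 6, Rpl8, Rpl32 and Rplp0 go down less, and Rps9 is highest at day 6.

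The day 2 calls were Rpl15 (18.8 and 17.8 CPM untreated, 24.9 and 27.3 at day 2; 0.52 on the log2 scale, edgeR adjusted p = 0.0471), Rps6 (above) and Rps3a1. Rps3a1, of the small subunit, stood at 225 and 199 CPM untreated, 264 and 261 at day 2, 243 and 233 at day 4, and 212 and 207 at day 6 (0.31 at day 2, edgeR adjusted p = 0.0395; −0.02 at day 6). These 3 calls were near the threshold. None of the 3 was made when either day 2 library, either day 6 library or untreated replicate 2 was left out.

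Paralogues, genes related in sequence to a core gene, were called lower at day 6 in 2 of 5 cases and higher in none, where 31.6% of all genes were called lower. Rps27l, known as a p53 target in cells that have p53, stood at 76.5 and 64.1 CPM untreated, 71.6 and 77.5 at day 2, 66.8 and 64.1 at day 4, and 44.6 and 45.7 at day 6 (−0.64, SE 0.10, edgeR adjusted p = 0.000153). Its reading frame is 75.3% identical to that of Rps27, and 83.8% of its stretches are unique. Rpl36al was called lower by a smaller amount (−0.24, edgeR adjusted p = 0.0302; lost with DESeq2, without untreated replicate 1 and without either day 6 library), while its parent Rpl36a (87.9% identical) was among the largest falls. Rpl22l1 (−0.08), which is regulated by its parent, and Rpl7l1 (−0.07) were not called, and their parents gave −0.46 (Rpl22, called) and −0.07 (Rpl7, not called). Rpl10, whose paralogue Rpl10l was not analysed here, gave −0.48 with no call (edgeR adjusted p = 0.117). Rps4x gave −0.10 with no call.

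Rpl3l, a paralogue of Rpl3 known from heart and skeletal muscle, had its lowest level at day 4. It had 25 and 38 counts in the untreated libraries, 16 and 17 at day 2, 8 and 7 at day 4, and 27 and 21 at day 6. Both day 4 libraries were the lowest (log2 fold change −1.90 against untreated, edgeR adjusted p = 0.00218) and day 6 was above them (1.89, edgeR adjusted p = 0.00521), the only member called higher between days 4 and 6. All its stretches are unique. Rpl3l lies next to Rps2 on chromosome 17 (24727826-24736143). Its parent Rpl3 went from 151 and 146 CPM to 126 and 125 (−0.24, edgeR adjusted p = 0.0115; lost without either day 6 library).

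All 4 retrocopies were called lower at day 6: Rpl32l (−0.45), Rps27rt (−0.42), Rpl37rt (−0.36) and Rps23rg1 (−0.35, lost with DESeq2 and without untreated replicate 1, day 2 replicate 2, day 4 replicate 1 or either day 6 library). The share of all genes called lower at day 6 was 31.6%. Of their parents, Rpl32 (−0.47) and Rpl37 (−0.56, lost without untreated replicate 1 or day 6 replicate 2 and with DESeq2) were called lower, while Rps27 (−0.01) and Rps23 (−0.27) had mean counts under 40 and no call. Rps19bp1 was called lower as well (−0.65).

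Rpl5 and Rpl11 form, with their ribosomal RNA, the particle that inhibits Mdm2 when ribosome assembly is disturbed. In these p53-null cells Rpl5 stood at 18.8 and 18.4 CPM untreated and 12.2 and 14.9 at day 6 (−0.46, edgeR adjusted p = 0.0132; lost without day 6 replicate 1 and with DESeq2). Rpl11 gave −0.38 with an SE of 0.31 and no call (edgeR adjusted p = 0.299; 4.09 and 3.69 CPM untreated, 3.60 and 2.38 at day 6), a difference not detectable at its depth. Of 20 members mutated in Diamond-Blackfan anaemia, in which red cell production fails, 10 were called lower and none higher (median −0.32), beside 50 of all 86 members (median −0.33) and 31.6% of all genes. Rps19, the gene most often mutated in that anaemia, went from 107 and 92.1 CPM to 76.0 and 68.6 (−0.46, edgeR adjusted p = 0.000923).

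The TOP tract was looked for at the annotated transcription starts, because the members share a known start element that the choice by name did not use. Of the 86 members 66 matched an entry of the RefSeq promoter table (GRCm38.p6). Windows ran from 250 bases before to 50 bases after the first start listed for a gene. Among the 6 members printed below, that start lies inside the gene's span for Rps2, Rps9 and Rpl38. A run of at least 5 pyrimidines that begins with C within 3 bases of the start was found in 27 of 66 members (40.9%) and in 11.6% of 27025 genes. The 30 bases around the start are printed for 6 members, with the run in capitals where there is one: Rps6 and Rps9, which were called higher, Rps18 and Rpl38, which were called lower, and Rps2 and Rpl41, called lower and without such a run.

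Rps6 (chr4:86857353-86857382, minus strand): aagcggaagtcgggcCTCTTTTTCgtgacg
Rps9 (chr7:3704026-3704055, plus strand): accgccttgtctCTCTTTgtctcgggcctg
Rps18 (chr17:33955651-33955680, minus strand): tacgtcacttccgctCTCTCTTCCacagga
Rpl38 (chr11:114668565-114668594, plus strand): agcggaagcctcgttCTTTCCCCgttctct
Rps2 (chr17:24720048-24720077, plus strand): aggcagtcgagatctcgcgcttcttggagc
Rpl41 (chr10:128549154-128549183, minus strand): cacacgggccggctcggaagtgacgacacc

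The start used by the cells was not measured, so a missing run says only that these letters are not at the annotated start. With a run, 13 of 27 members were called lower and 2 higher at day 6 (median −0.31). Without it, 24 of 39 were called lower and none higher (median −0.34). Among all genes tested, 31.6% were called lower at day 6 and 32% higher. CCGGAAG, the core of the ETS factor family to which PU.1 belongs, was found on either strand of 23 windows (34.8%), against 9.12% of 27025 genes. Those are all genes of the promoter table, not only the genes tested here. Of these 23 members 12 were called lower (median −0.31), and of the 43 without it 25 (median −0.33). GAGGAAGT, the form PU.1 prefers, which shares the letters GGAAG with CCGGAAG, was in 3 windows (4.55%), against 3.28% of all genes of the promoter table. The YY1 motif AAGATGGC was in 7.58% and 2.88%, the GC box GGGCGG in 59.1% and 35.9%, and TATAAA in 9.09% and 14.2%. None of these matches is evidence of binding.

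Genes that work with the ribosomal proteins were followed for comparison. Of ribosomal proteins whose symbols fall outside the rule, Rack1 (−0.25) was called lower at day 6 and Fau (0.41) was not called. The call of Rack1 was lost without untreated replicate 1 or either day 6 library. Elongation factors and related genes gave 11 of 14 called lower and none higher (median −0.40), against 31.6% of all genes called lower. Eef1e1 (−1.05), Hnrnpa1 (−0.97) and Eef1g (−0.87) were ahead. Eef1e1 and Hnrnpa1, which are not elongation factors, stood at 27.7 and 33.0 and at 44.7 and 49.1 CPM in the untreated libraries. Eef1g, a subunit of the complex that reloads elongation factor 1A, stood at 89.1 and 75.4 CPM untreated, 79.1 and 81.6 at day 2, 67.5 and 61.9 at day 4, and 43.2 and 46.7 at day 6. Assembly and export factors of ribosomal proteins gave 14 of 19 called lower and 1 higher (median −0.34), against 31.6% and 32% of all genes. The leading 3 were Tsr2, the chaperone of Rps26 (−1.60), Grwd1, the chaperone of Rpl3 (−1.59), and Nob1, the nuclease that finishes the small subunit's RNA (−1.34). Tsr2 went from 24.2 and 27.2 CPM to 8.78 and 8.11, and its partner Rps26 from 181 and 158 to 125 and 118 (−0.48).

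Transcripts of host genes of small nucleolar RNAs often also begin with TOP tracts. These host genes gave 6 of 8 called lower and none higher (median −0.90), against 31.6% of all genes called lower. Epb41l4aos (−1.27), Snhg1 (−1.11) and Snhg5 (−1.01) were ahead among them. Untreated replicate 2 stood high for them: Snhg1 held 12.1 and 23.0 CPM in the untreated libraries, and without that replicate the list's median was −0.58, with 6 still called lower.

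**Figure D5:**
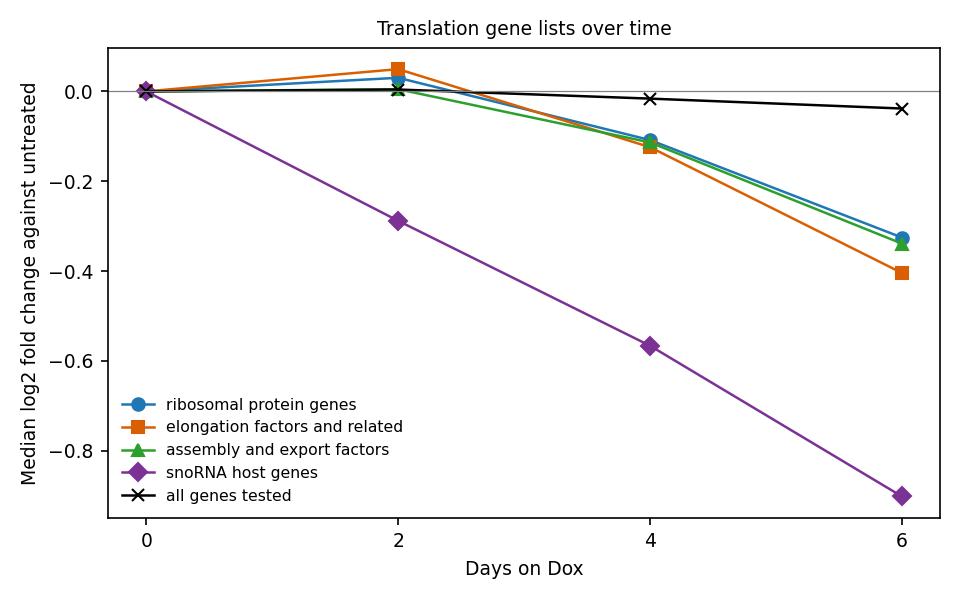
Median log2 fold change against untreated at days 2, 4 and 6 (x axis, days on Dox; untreated is 0 by definition) of the 86 ribosomal protein genes, 3 lists of related genes and all 12330 genes tested. The ribosomal protein genes, the elongation factors with related genes, and the assembly factors lie together near 0 at day 2. In that order they are at −0.33, −0.40 and −0.34 at day 6, and the snoRNA host genes are lower at each day.

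Regulators were called in both directions. Of 16 genes of the TOP and mTOR pathway, 5 were called higher and 5 lower at day 6, which is near the shares of all genes (32% higher and 31.6% lower). Under library totals 1 was called higher and 10 lower (16.9% and 53.9% of all genes), and without untreated replicate 2 or either day 6 library only 2 were called lower. Rps6ka1, a kinase of Rps6, stood at 280 and 250 CPM untreated and 791 and 829 at day 6 (1.61), Lamtor1, which anchors mTOR complexes at lysosomes, was also called higher (0.71; no call under library totals), and Akt1s1, an inhibitor within the mTOR complex, was called lower (−1.12). Larp1, the TOP-binding protein, stood at 171.9 and 246 CPM untreated and 161 and 154 at day 6 (−0.41, edgeR adjusted p = 0.0205; −0.13 and no call without untreated replicate 2, and no call without either day 6 library). Of 7 genes of the Myc network 4 were called higher and 2 lower (2 and 3 under library totals): Myc went from 110 and 230 CPM to 43.7 and 40.2 (−2.02, edgeR adjusted p = 0.00024), and its antagonists Mxd1 (2.56) and Mxd3 (1.05) were called higher. In Myc the untreated libraries differed by more than the libraries of day 2 (121 and 129 CPM) or day 6 did. Of 16 transcription factors linked to ribosomal protein promoters 8 were called higher and none lower, beside 32% and 31.6% of all genes. The 8 include Spi1 itself (4.39), the gene that the design restores, whose rise is no result about this list. The ETS factors Elf4 (0.92) and Elk1 (0.52) came next. Under library totals 2 of the 16 were called higher and 7 lower, and Elk1 had no call.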

How the data were processed

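The authors deposited 1 table per library, with a count and a gene length (in bases) for each Entrez gene ID, per the file headers. The deposited counts are unnormalised whole numbers. Build mm10, limma 3.22.0, edgeR 3.8.2, featureCounts and CASAVA 1.8.2 are listed in the submitters' processing notes; the aligner, strandedness and handling of multi-mapping reads were not given. In every gene the third highest CPM was at least 0.501, so lowly expressed genes were missing from the deposited tables. RefSeq (GRCm38.p6) gave symbols for 12555 of 12830 IDs; the others, with 2.24% of counts, were tested under their ID.

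All 8 libraries entered 1 fit in R 4.3.3: filterByExpr (500 genes removed), TMM, and the edgeR 4.0.16 quasi-likelihood test of group means, with Benjamini-Hochberg adjustment over 12330 genes at a threshold of 0.05. There were 4 residual and 7.08 prior degrees of freedom (biological coefficient of variation 8.34%). Standard errors are the fold change divided by the root of its F statistic. CPM values are TMM-scaled. Depth limits genes of few counts most. The code was tested on simulated counts. Alternatives included RLE size factors, library totals, DESeq2 1.42.0, no filter, the replicate number as a block and leaving out each library. Sequences came from GENCODE M21 transcripts and the RefSeq promoter table.

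Named genes are the 6 largest called rises and falls at day 6 and 3 each way at days 2 and 4 (groups not overlapping), the 3 members highest per kilobase, the stalk, Rpl5, Rpl11, paralogues with their parents, and up to 3 called genes per list. Others were named after their values were seen. Some genes are not reported here. The members and lists were chosen with earlier results of these data known.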

Additional observations from a re-analysis of the deposited data

How the results depend on the processing

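With other settings the members called lower at day 6 (50 of 86) ranged from 30 to 50 when 1 library was left out, and were 77 under library totals and 40 with DESeq2, all 40 among the 50. Of the 50, 40 stayed called under all 8 settings that use every library and 26 under all 16 settings. The members called higher at day 6 (2) were 0 under library totals, 1 with only the 2 groups in the fit, 1 with DESeq2 and 1 to 4 without 1 library. At day 2 the 3 higher calls became 0 under library totals and with 2 groups only, 1 with DESeq2, and 0 to 3 without 1 library (lower calls 0 to 1). The day 2 median was −0.15 under library totals and between −0.0263 (without untreated replicate 2) and 0.1113 (without untreated replicate 1) with 1 library left out. At day 4 the lower calls (10) were 40 under library totals, 6 with 2 groups only and 1 to 14 without 1 library. The higher calls at day 4 (2) were 0 under library totals and with DESeq2, 1 with RLE, with TMM factors computed without the members, without genes over 5% of a library and with 2 groups only, and 1 to 5 without 1 library. Between days 2 and 4 the lower calls (9) were 2 to 16 without 1 library. Between days 4 and 6 the lower calls (20) were 40 under library totals, 37 with 2 groups only and 6 to 34 without 1 library, and among members with at least 200 counts 35.1% were called lower, against 23.3% of all members. Between days 2 and 6 the higher call (1) was 0 under library totals and with TMM factors without the members, and 0 to 1 without 1 library. The F test called 27 to 53 members without 1 library. Under library totals Rps9 stood at −0.0553 at day 4 and −0.14 at day 6, and Rps6 at −0.0674 at day 6. The cause of these differences was not tested, beyond fewer samples in a fit. Removing the filter moved no count of calls by more than 1.5 times.

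The replicate numbers of the titles share only a number. Same-numbered libraries deviated together with correlations from −0.138 to 0.2 over genes. With the replicate number as a block, 50 members were called lower and 2 higher at day 6, 1 was called higher at day 4 and 0 between days 2 and 6.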

Other observations

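Members with few counts varied in another way between the untreated libraries than the abundant ones. In the 29 members with a mean under 200 counts the median log2 ratio of untreated replicate 2 to replicate 1 was 0.09, with a highest value of 0.98, while in the 57 others it was −0.16, with a highest value of 0.30. At day 6 the medians were −0.15 and −0.03. Rps13 held 1.28 and 3.02 CPM in the untreated libraries, Rpl10 14.2 and 24.7 and Rpl24 4.17 and 6.62, and none of these 3 was called at day 6. The snoRNA host gene Gas5 (38.3 and 59.5 CPM) and Larp1 (171.9 and 246 CPM) also stood higher in untreated replicate 2. These genes were picked after their values were seen.

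The 23 pseudogene names left out by the rule took 0.0728% of the counts in untreated cells and 0.0485% at day 6, a ratio of 0.666, beside 0.602 for the members. Some of the translation genes outside the members were close to the members' median at day 6: Eef2, the translocation factor, went from 2812 and 2502 CPM to 2229 and 2126 (−0.29, edgeR adjusted p = 0.0179), and Eef1a1, the factor that delivers aminoacyl-tRNA, from 2728 and 2366 to 2200 and 2104 (−0.24, edgeR adjusted p = 0.0444). Both calls were lost without untreated replicate 1 or either day 6 library, and that of Eef1a1 also with the replicate number as a block, with no filter, and without day 2 replicate 2 or either day 4 library. Pabpc1, the poly(A)-binding protein, stood at 1786 and 1689 CPM untreated and 1235 and 1248 at day 6 (−0.49, edgeR adjusted p = 0.000426).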
